A study of Drosophila melanogaster with 76 samples.

Results

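The genes described here are 92 genes of Drosophila melanogaster whose symbols name cytoplasmic ribosomal proteins, out of 13922 protein-coding genes on 2L, 2R, 3L, 3R, 4 and X. By symbol, 38 are of the small subunit (beginning RpS) and 54 of the large subunit (RpL). They were chosen by symbol alone, from the RefSeq annotation of the dm6 assembly, and no measured value entered the choice. Ribosomal protein genes with other symbols are not included, and the function of each protein, -like genes among them, was not checked. A gene was counted in a peak list when at least 1 peak summit lay within its annotated span or within 500 bp of either end. Of the 92 genes, 88 had a summit in at least 1 of 31 lists and 4 had none in any. By this count, ribosomal protein genes were listed more often than protein-coding genes in general in most lists of cells carrying a Zld, Grh or untagged Twi construct and in all 4 lists of wild-type cells, and less often in the lists of cells carrying HA-tagged Twi. That last gap was much smaller against genes within the members' range of lengths. At 40 µM the HA-Twi shares were 3.3% of members, 11.7% of all genes and 4.52% of genes in that range.

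Ribosomal proteins assemble with ribosomal RNA into the small and large subunits of the ribosome, and their genes are among the most heavily transcribed in growing cells. In Drosophila their promoters typically start transcription at a polypyrimidine initiator, the TCT motif, and depend on the TBP-related factor Trf2 more than on a TATA box. Loss of 1 copy of many of them gives the Minute phenotype of slow growth and short bristles.

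The data are chromatin immunoprecipitations followed by sequencing (ChIP-seq) from S2 cells, a cultured line with properties of embryonic blood cells. The study expressed the pioneer factors Zelda (Zld) and Grainy head (Grh) and the mesodermal activator Twist (Twi) from copper-inducible constructs and harvested cells 48 hours after addition of copper sulfate. Zld was profiled with anti-Zld at 1000 µM copper in a single-dose experiment, at 0, 500, 1000 and 1500 µM in a dose series, and at 1000 µM with DMSO or with a treatment written "taz". Grh was profiled with anti-Grh at 100 µM, at 0, 25, 100 and 400 µM, and at 100 µM with taz or DMSO. The DBD constructs, read here as the DNA-binding domains, were induced at 100 µM and at 100 and 400 µM for Zld-DBD, and at 20 µM and at 20 and 80 µM for Grh-DBD. Untagged Twi was profiled with anti-Twi at 40 µM, and HA-tagged Twi (HA-Twi) with anti-HA at 0, 10, 40 and 160 µM and at 40 µM with taz or DMSO. Wild-type S2 cells received copper too and were profiled with anti-Zld at 1000 µM, anti-Grh at 100 µM, and anti-Twi and anti-HA at 40 µM. Peak lists cannot show whether the cells carry S2 markers, nor whether wild-type cells contain any of the 3 factors.

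Every list pools the 2 libraries of its group, which leaves no replicate error and allows no test between groups. Intervals given with a share are exact 95% binomial intervals (Clopper-Pearson) and cover counting error over genes only. The lists held 77 to 12106 regions, and the sequencing depth is not in the lists. Experiments made more than once with the same construct, dose and antibody give the only view of spread. Ribosomal protein genes with a summit numbered 82 and 84 in 2 experiments on Zld at 1000 µM and 6 in its DMSO experiment. For Grh at 100 µM the counts were 76, 74 and 35 (DMSO). For Zld-DBD at 100 µM they were 15 and 33, for Grh-DBD at 20 µM 67 and 70, and for HA-Twi at 40 µM 3 and 0 (DMSO). Differences between lists below are read against that spread.

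The single-dose and dose-series Zld lists named most ribosomal protein genes. In the single-dose Zld experiment 82 of 92 had a summit (89.1%, interval 80.9 to 94.7%), against 45.6% of all protein-coding genes. Ribosomal protein genes are short, with a median span of 1315 bp against 2163 bp, but among the 10192 genes within their range of lengths (304 to 4677 bp), called genes of like length below, the share was lower still, 39.2%. The single-dose Grh list held 76 (82.6%, 73.3 to 89.7%), against 54.3% of all genes and 47.8% of genes of like length. The Twi list held 85 (92.4%, 84.9 to 96.9%), against 58.0% and 51.2%. The HA-Twi list at 40 µM went the other way: 3 of 92 had a summit (3.3%, 0.7 to 9.2%), against 11.7% of all genes, though the genes of like length, 4.52%, lay within that interval. The plot of shares by list sets these beside the other lists.

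**Figure D1:**
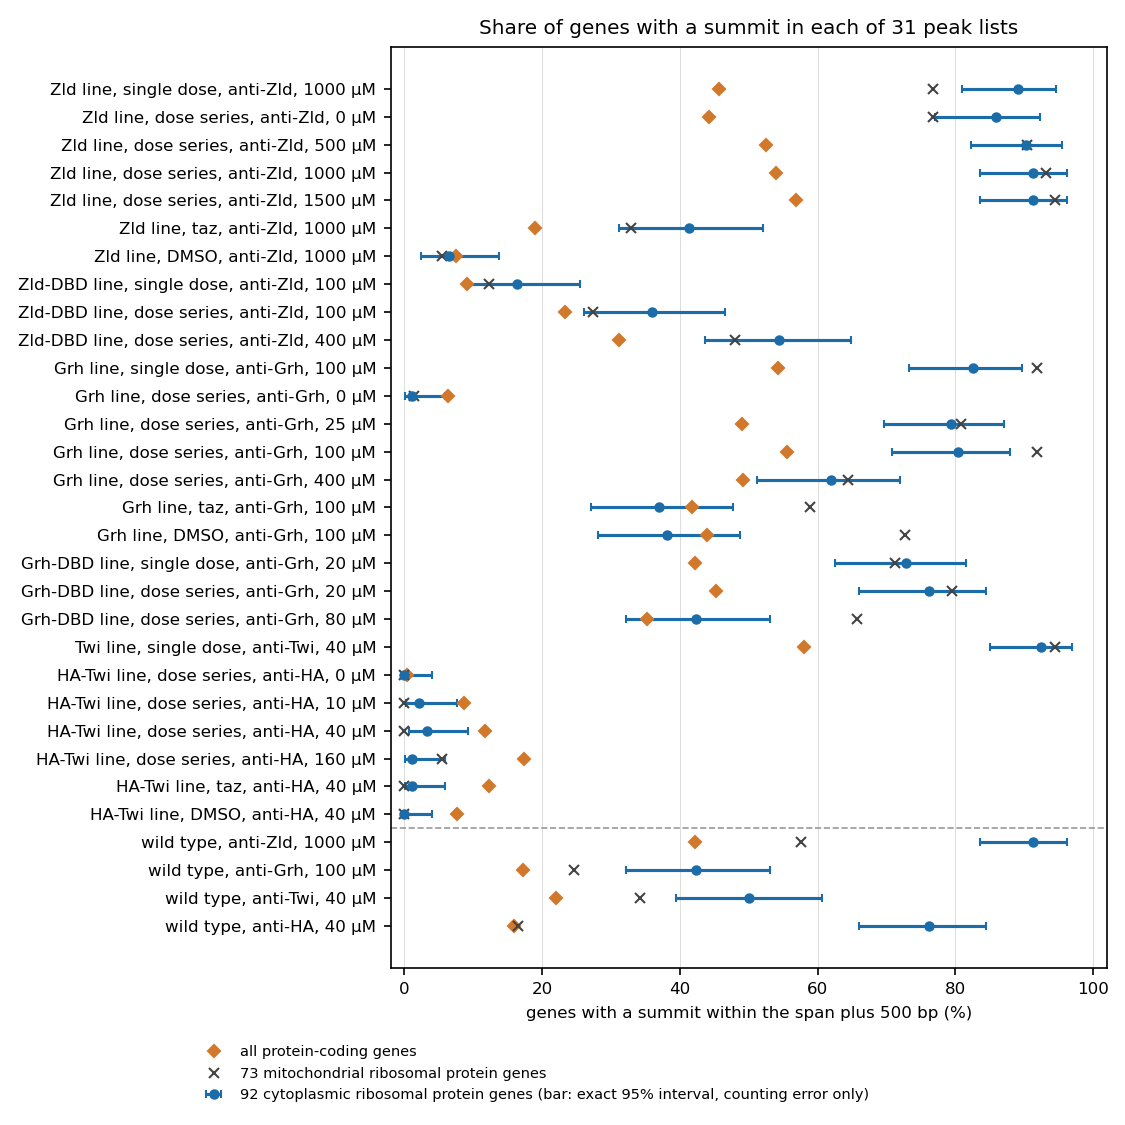
Share of genes with at least 1 summit within the gene span plus 500 bp (x axis, percent) in each of the 31 peak lists (rows, with copper dose), for the 92 cytoplasmic ribosomal protein genes (circles, with exact 95% intervals for counting error), all 13922 protein-coding genes (diamonds) and 73 mitochondrial ribosomal protein genes (crosses). The wild-type lists stand below the dashed line, and there the circles lie at 42.4 to 91.3%, right of both other symbols in all 4.

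In wild-type cells most of these genes had a summit with anti-Zld and anti-HA, and fewer with anti-Grh and anti-Twi. The anti-Zld list held 84 of 92 (91.3%, 83.6 to 96.2%), against 42.2% of all genes and 34.4% of genes of like length. The anti-Grh list held 39 (42.4%, 32.1 to 53.1%), against 17.2% and 12.8%. The anti-Twi list held 46 (50.0%, 39.4 to 60.6%), against 22.0% and 15.9%, and the anti-HA list 70 (76.1%, 66.1 to 84.4%), against 15.9% and 10.3%. Wild-type cells carry no HA-tagged construct by their labels, so the anti-HA list has no labelled target. Of the 4 wild-type lists, 21 ribosomal protein genes were in all 4, 31 in 3, 28 in 2, 6 in 1 and 6 in none, while 54.5% of all genes were in none. All 70 genes of the anti-HA list were also in the anti-Zld list, which held 84 of the 92, so a large overlap follows from the shares alone. At these 70 genes the highest summits of the 2 lists lay a median of 29 bp apart, and 48 pairs were within 50 bp. The overlap and the distances were not computed over all genes.

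Set against the wild-type list of the same antibody and dose, the Zld line could add few members, since only 8 lacked a wild-type summit. Summits were listed at 79 genes in both, at 3 in the Zld line alone (RpS15Ab, RpS5b and RpL34a), at 5 in wild type alone (RpL13, RpL7, RpL7-like, RpS2 and RpS28-like) and at 5 in neither. Those 3 genes are 3.3% of the members, while 9.68% of all genes had a summit in the Zld line alone and 6.37% in wild type alone. For Grh the numbers were 34 in both, 42 in the Grh line alone, 5 in wild type alone and 11 in neither, and 39.0% of all genes were in the Grh line alone and 1.87% in wild type alone. For Twi they were 44, 41, 2 and 5, and 37.1% of all genes were in the Twi line alone and 1.04% in wild type alone. The 42 and 41 members gained cannot be set directly against those backgrounds, because only genes without a wild-type summit could be gained. That left 8, 53 and 46 members for Zld, Grh and Twi, while 42.2%, 17.2% and 22.0% of all genes had a wild-type summit. Shares gained among members and among all genes therefore had different ceilings. For HA-Twi at 40 µM 22 members lacked a wild-type anti-HA summit, and none was in the HA-Twi line alone, against 5.62% of all genes. Summits were in both lists at 3 members, and in wild type alone at 67, against 9.78% of all genes.

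At most of the genes gained by Grh and Twi over the matched wild-type list, the factor's region overlapped a wild-type region of another antibody. Each of the 3 genes gained by Zld had a region that overlapped no wild-type region. RpL34a among them still had a wild-type anti-Twi summit elsewhere in its window. A member was listed with a region overlapping none of the 4 wild-type lists in 5 cases for Zld (RpS15Ab, RpS5b, RpS27, RpL34a and RpS5a), against 12.6% of all genes. For Grh there were 3 (RpL27A, RpS15Ab and RpS20), against 21.4%. For Twi there were 11, against 29.3%: RpS13, RpL13, RpL5, RpS15Ab, RpL26, RpL10, RpL34b, RpS27, RpL34a, RpL35 and RpS5a. For HA-Twi at 40 µM there was none, against 6.72%. Only 6 members had no summit in any of the 4 wild-type lists, against 54.5% of all genes. Members therefore had less room for such a region, and these counts cannot be set directly against those backgrounds either.

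Most listed summits lay near an end of the ribosomal protein gene. The same distances were not computed for other genes, so this is not shown to be particular to these genes. Their spans are short (median 1315 bp) and the windows reach only 500 bp beyond them, which also limits how far a summit can lie from an end. The annotation used gives no strand, so positions are distances from the nearer end of the gene span. The highest summit lay within 150 bp of an end at 62 of 82 genes in the Zld list, 55 of 76 in the Grh list and 52 of 85 in the Twi list. In wild-type cells the numbers were 66 of 84 with anti-Zld, 26 of 39 with anti-Grh, 36 of 46 with anti-Twi and 58 of 70 with anti-HA. Among the 88 genes with any summit, 46 had it at the same end in every list that named them. RpL11, whose protein joins the 5S RNA particle of the large subunit, is one of the steadiest. All 14 of its summits lay outside the same end, 60 bp from it in the Zld list, 53 bp in the Grh and Twi lists, and 44, 53 and 28 bp in wild type with anti-Zld, anti-Twi and anti-HA.

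The single-dose Zld list and the wild-type anti-Zld list named nearly the same genes, with summits at different distances from the gene end. The summit lay outside the gene span at 73 of 82 genes in the single-dose Zld list (89.0%, 80.2 to 94.9%), against 53 of 84 in wild type with anti-Zld (63.1%, 51.9 to 73.4%). At the 71 genes with both summits at the same end, the Zld summit was further out at 63 and further in at 8, with a median shift of 28 bp (quartiles 13.0 and 62.5 bp). The shift had the same direction in 5 other Zld lists, all set against that 1 wild-type list. These are the doses of 1 series and the taz list, so they are not 5 separate repeats. It was 34 bp at 0 µM (no copper added), 28 bp at 500 µM, 22 bp at 1000 µM and 21 bp at 1500 µM of the dose series, and 43 bp with taz. The summit was further out at 53 of 63, 51 of 65, 51 of 66, 50 of 65 and 27 of 30 genes in those 5 lists. Between the 2 Zld experiments at 1000 µM the median shift was 3 bp, and the single-dose summit was further out at 38 of 67. Repeats were not always this close: between the 2 Grh experiments at 100 µM, single-dose against dose series, the median shift was 19 bp and the single-dose summit was further out at 45 of 62. The Grh list against wild type with anti-Grh gave -2 bp (further out at 11 of 29), and the Twi list against wild type with anti-Twi gave -0.5 bp (14 of 32). Wild-type lists differed among themselves by as much: anti-Zld summits lay further in than anti-Grh summits at 30 of 36 genes (median -30.5 bp) and than anti-Twi summits at 28 of 42 (-11 bp).

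**Figure D2:**
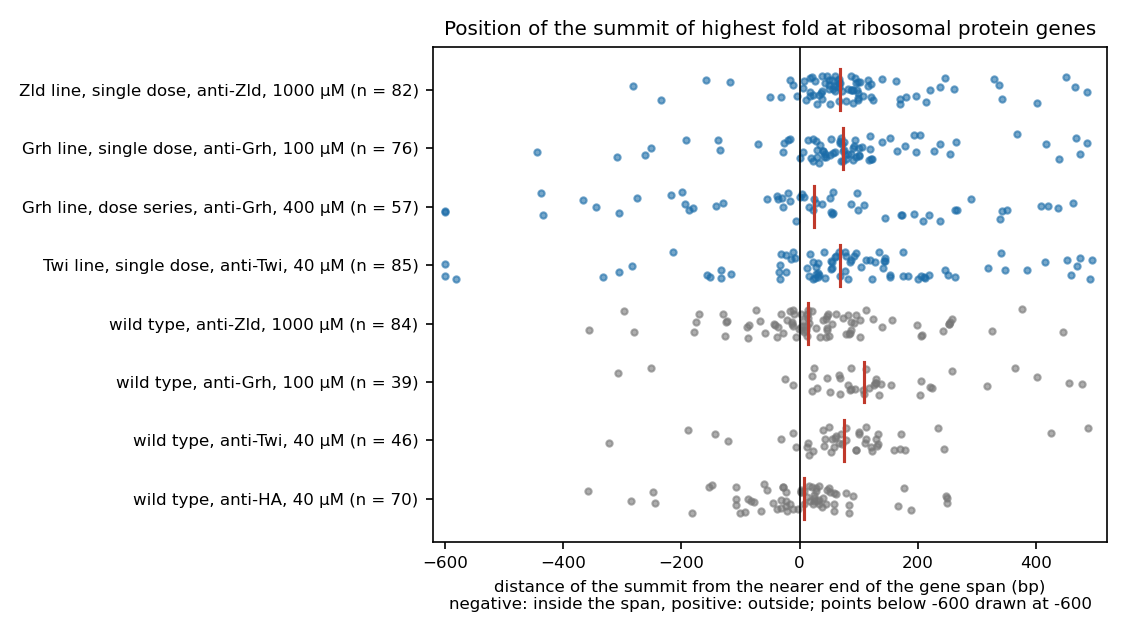
Distance of the highest summit from the nearer end of the gene span (x axis, bp; negative inside the span, positive outside) at each ribosomal protein gene named in 4 factor lists (blue) and in the 4 wild-type lists (grey). Each point is 1 gene and red bars are medians; the Zld, Grh and Twi points lie mostly outside the span, while those of wild type with anti-Zld (53 of 84 outside) and anti-HA (39 of 70 outside) straddle the gene end.

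In the anti-HA list of wild-type cells the summits were closest to the ribosomal protein gene itself. Another protein-coding gene was nearer to the summit at 6 of 70 genes there, although 72 of the 92 genes have another coding gene within their window. In the other wild-type lists another gene was nearer at 14 of 84 (anti-Zld), 12 of 39 (anti-Grh) and 18 of 46 (anti-Twi). In the lists of expressed factors it was nearer at 19 of 82 (Zld), 21 of 76 (Grh) and 25 of 85 (Twi). With Grh and taz it was nearer at 20 of 34. RpL12 and RpL39 shared a summit in 1 list and RpS14a and RpS14b, adjacent on X, in 7, so those members are not independent of each other.

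The strongest summits at members in wild type with anti-Zld and anti-Twi lay at genes next to the centromeres or on chromosome 4, while with anti-Grh none of the 5 highest did. The fold given with each peak is the authors' enrichment, and it is used here only to rank the regions of 1 list. In the wild-type anti-Zld list the highest folds at ribosomal protein genes were 37.9 at RpL15, 23.6 at RpL10, 23.5 at RpL5, 19.7 at RpS3A and 19.1 at RpL38, where the list's median region had 3.92. With anti-Twi the same 5 genes led, with 5.94 at RpL15, 5.31 at RpL10, 5.07 at RpL38, 4.21 at RpL5 and 3.87 at RpS3A. With anti-HA, RpL37A led with 4.37, followed by RpL15 (4.03), RpL38 (4.01), RpL22 (3.99) and RpL10 (3.55). RpL5 lies at chr2L:22532279-22536884 with 13 coding genes between it and the centromere side of the arm, RpL10 at chr3L:23093190-23095471 with 35, RpL15 at chr3L:27267255-27268445 with 3, RpL38 at chr2R:4515388-4516458 with 23. RpS3A is the only member on chromosome 4 (chr4:65225-67207). RpL21, at chr2L:22247111-22247875 with 16 coding genes beyond it, is the only other member among the 50 coding genes nearest the centromere on its arm.

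This grouping by position was made after the values were seen. The 6 genes ranked above a median of 98.6% of the regions in the wild-type anti-Zld list, 98.0% with anti-Twi and 94.2% with anti-HA, while the other members ranked above 49.4%, 57.0% and 53.6%. With anti-Grh only RpL38 and RpS3A of the 6 had a summit, above 47.8% and 61.6% of regions. The rank was shared by other genes of these places: over all 330 coding genes nearest a centromere or on chromosome 4, those with a summit ranked above a median of 88.7% of regions with anti-Zld in wild type, and the remaining genes above 48.5%. The single-dose Zld list gave 92.1% for these 330 genes and 56.0% for the rest, and all 6 members ranked above 90.8% to 95.2% of its regions. The Zld dose-series list at 1000 µM did not share this: the 6 members ranked above a median of 34.7%, and the other members above 49.9%. Copy number and input signal of these places were not tested.

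**Figure D3:**
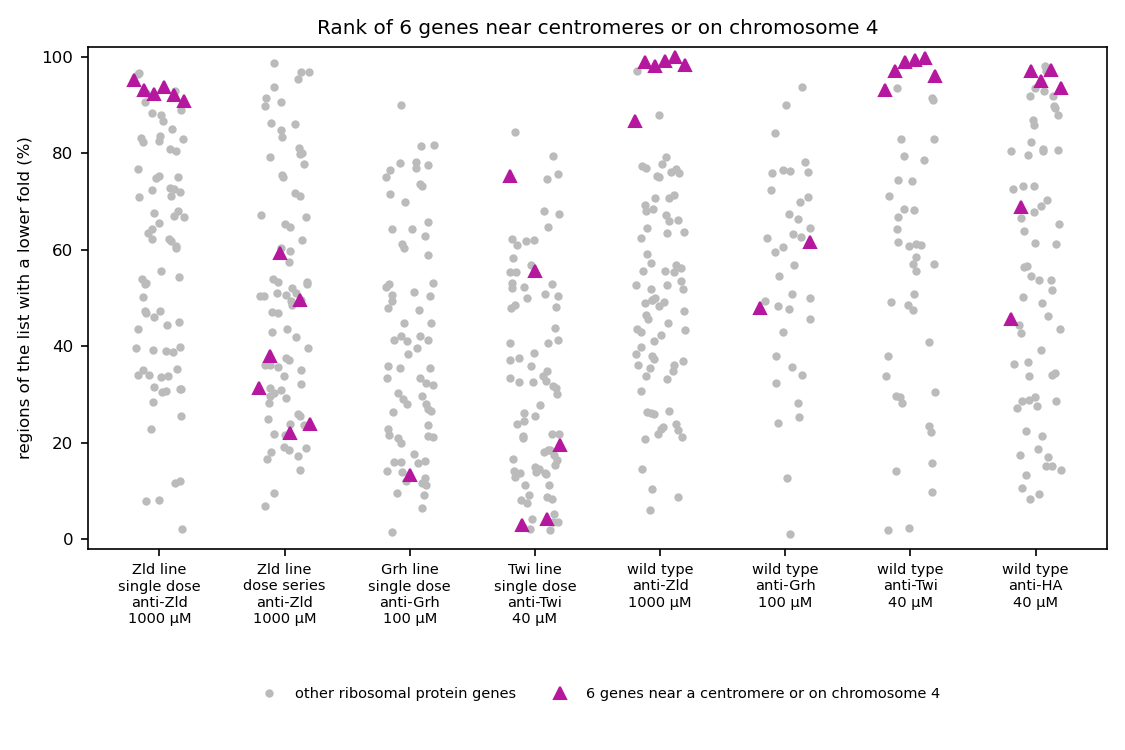
Rank of each ribosomal protein gene's highest fold within its list (y axis, percent of the list's regions with a lower fold) in 4 factor lists and the 4 wild-type lists. Triangles are the 6 genes near a centromere or on chromosome 4 (RpL5, RpL10, RpL15, RpL21, RpL38, RpS3A), which lie near the top of the single-dose Zld list and of wild type with anti-Zld and anti-Twi; 1 of the 6 appears in the Grh list and 2 in wild type with anti-Grh.

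The same 6 genes were poorly listed for Grh. RpL5, RpL10 and RpL15 had a summit in none of the 7 lists of full-length Grh and in none at anti-Grh in wild type. RpL21 and RpL38 had one at 25 µM only. RpS3A had one in 5 of the 7. In the single-dose Grh-DBD list and the Grh-DBD list at 20 µM all 6 had a summit, with median ranks above 23.9% and 22.0% of regions. Over the 330 coding genes of these places 37.0% had a summit in the single-dose Grh list, against 54.7% of the rest. The gap was smaller at 25 µM (43.3% against 49.2%) and with DMSO (43.0% against 43.9%).

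The leading members differed between the single-dose lists of the factors, but also between the 2 Zld experiments at 1000 µM. The difference between factors is therefore not separable from the spread between experiments. In the dose-series Zld list at 1000 µM the highest folds were at RpL37-1, RpS26, RpS16, RpS5a and RpS27. In the single-dose Zld list the highest folds were 6.29 at RpS16, 6.24 at RpS14a, 5.85 at RpL21, 5.36 at RpL10 and 5.21 at RpL5. In the Grh list they included 16.0 at RpS4, 11.0 at RpS13, 11.0 at RpL7-like and 9.92 at RpL24-like. In the Twi list they were 5.02 at RpS14b, 4.54 at RpS5a, 4.24 at RpL26, 4.2 at RpL5 and 4.17 at RpS4. No gene was among the 5 highest in all 3 lists, though RpL5 was for Zld and Twi and RpS4 for Grh and Twi. Over all members, ranks were below those of all listed genes for Grh and Twi, and also in the Zld dose series. The median member ranked above 62.2% of regions in the single-dose Zld list, 37.1% in the Grh list and 31.3% in the Twi list, where the median over all listed genes was 56.9%, 52.5% and 48.9%. In the Zld dose series the members' medians were 42.1%, 44.3%, 49.4% and 55.3% at 0, 500, 1000 and 1500 µM. Over all listed genes those lists gave 60.8%, 60.8%, 62.3% and 64.2%. With Zld and taz the medians were 34.7% for members and 43.8% for all listed genes. In the wild-type lists the members' medians were 50.9% (anti-Zld), 59.6% (anti-Grh), 60.9% (anti-Twi) and 55.5% (anti-HA), beside 49.2%, 53.1%, 56.3% and 55.4% over all listed genes. In the Grh dose series the median member ranked above 16.5% of regions at 25 µM, 18.9% at 100 µM and 14.9% at 400 µM, while the median over all listed genes was 47.7%, 48.1% and 49.3%. At 25, 100 and 400 µM, 12 of 73, 9 of 74 and 8 of 57 members ranked above the list's median region. In the upper 10% of the list stood 11 of 82 members with single-dose Zld, 1 of 76 with Grh (RpS4) and none of 85 with Twi. In wild type there were 6 of 84 with anti-Zld, 1 of 39 with anti-Grh, 9 of 46 with anti-Twi and 10 of 70 with anti-HA.

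**Figure D4:**
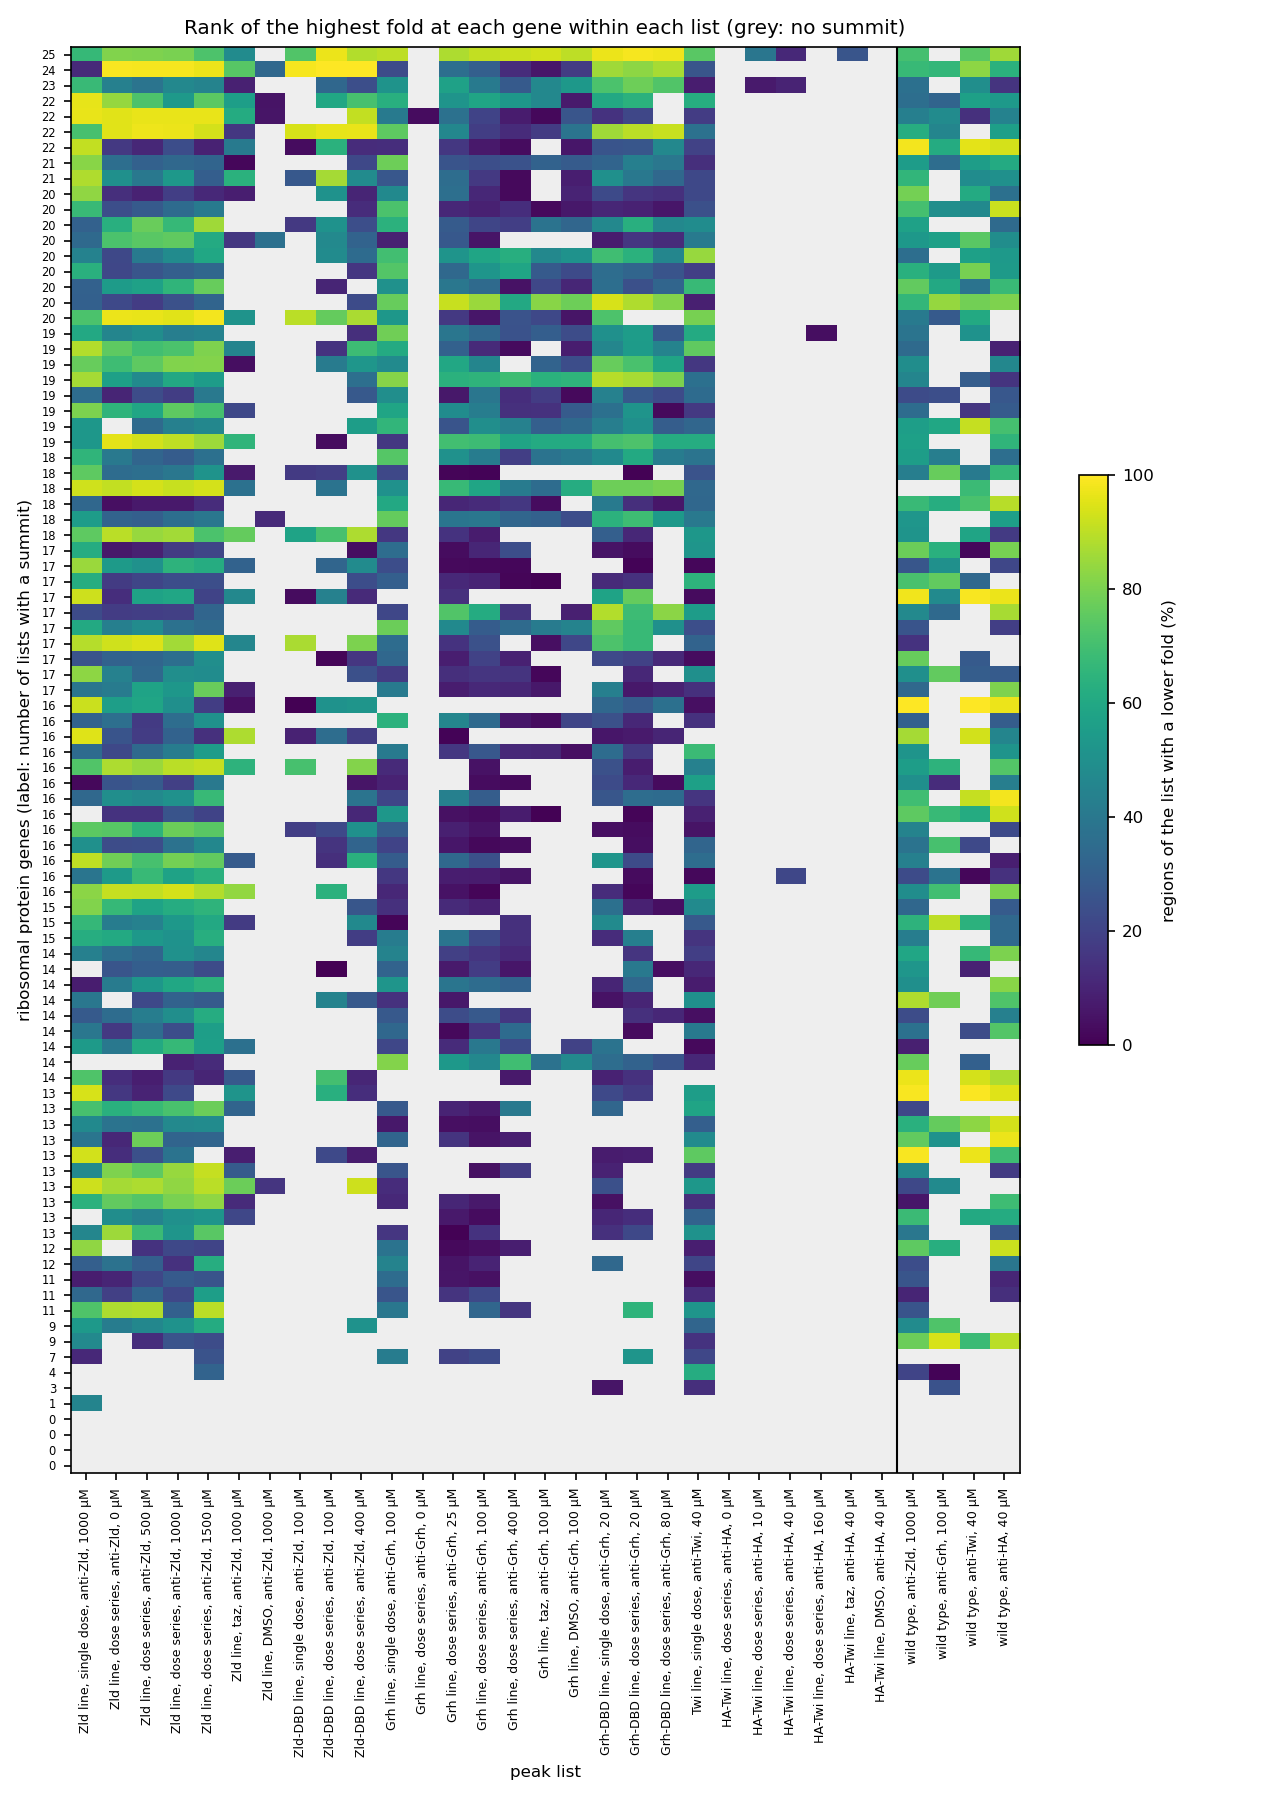
Rank of the highest fold at each of the 92 ribosomal protein genes (rows, labelled with the number of lists that named the gene) within each of the 31 peak lists (columns, wild type to the right of the black line); colour is the percent of the list's regions with a lower fold, and grey means no summit. The 5 Zld columns of the single-dose experiment and dose series are filled for most rows, the 6 HA-Twi columns are almost empty, and the 4 lowest rows have no summit in any list.

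Zld dose lists put the same few members on top at every dose. RpL37-1, which encodes a large-subunit protein, ranked above 99.2% of regions at 0 µM, 98.8% at 500 µM, 98.7% at 1000 µM and 97.0% at 1500 µM. In the 3 Zld-DBD lists it ranked above 98.5%, 99.8% and 99.9%. In the single-dose Zld list it ranked above 12.1%. The position differed too. The summits of the dose series and of Zld-DBD lay 417 to 449 bp outside the low-coordinate end of RpL37-1 (chrX:15137870-15139367), nearer to the gene drd, whereas the single-dose Zld summit lay 65 bp outside the other end and the wild-type anti-Zld summit 28 bp outside it.

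RpS26, a small-subunit gene at chr2L:18441335-18443277, also ranked high there, with no other coding gene within 1000 bp of its summits. In the 4 lists of the Zld dose series its summit lay 106 to 110 bp inside the low-coordinate end and ranked above 93.4 to 97.6% of regions. In the 3 Zld-DBD lists it lay 106 to 111 bp inside and ranked above 93.9 to 96.8%. The single-dose Zld summit lay 67 bp outside the high end and ranked above 70.9% of regions. In the 6 Grh lists that named RpS26 the summit lay outside the opposite end, 4 to 94 bp from it, and in the 3 Grh-DBD lists 88 to 95 bp from it. Wild type with anti-HA had a summit 107 bp inside the low end, wild type with anti-Zld 11 bp inside the high end, and wild type with anti-Grh 94 bp outside the high end.

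RpS29, whose small-subunit protein binds zinc, showed a Grh position apart from the rest. At RpS29 (chr3R:9778042-9779528) the summits of 6 lists of full-length Grh lay 252 to 275 bp inside the high-coordinate end and those of the 3 Grh-DBD lists 244 to 266 bp inside it. The 5 Zld lists that named it had summits 12 to 41 bp inside the low end, the Twi list 8 bp inside that end, and the 4 wild-type lists within 28 bp of it on either side. The Grh summit of RpS29 ranked above 76.9% of regions in the single-dose list, and above 91.4%, 84.9% and 60.2% at 25, 100 and 400 µM. RpS3 (chr3R:23358812-23360207) also had its Grh and Zld summits at different ends, but its Twi summit lay outside the high end, 319 bp from it. Its 2 HA-Twi summits lay outside that end too (351 and 364 bp), as did 1 Zld-DBD summit (353 bp). Another Zld-DBD summit lay 156 bp outside the low end. Its Grh summits lay 139 to 196 bp inside the high end in 6 lists and its Grh-DBD summits 182 to 188 bp inside it, while its 6 Zld summits lay 140 to 174 bp outside the low end, 5 of them nearer to Sec13.

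At 3 further genes many of the factor summits were nearer to a neighbour. RpS4 (chr3L:13041756-13044234) was in 25 lists, more than any other member, and ranked above 87.8 to 93.2% of regions in 6 Grh lists and 96.9 to 98.7% in the 3 Grh-DBD lists. All 9 of these summits were nearer to Syx13, a syntaxin gene. Of the 6 Zld summits of RpS4, 3 were nearer to Syx13 and 3 lay 51 to 73 bp outside its own low-coordinate end. The summit of RpS4 in wild type with anti-HA lay 45 bp inside its own low-coordinate end. RpS16 (chr2R:22605745-22607995) had its summit 261 to 292 bp outside the high end, nearer to the ESCRT gene Vps20, in 6 of 7 Zld lists, where it ranked above 61.6 to 96.8% of regions. All 4 wild-type lists had the RpS16 summit 308 to 358 bp inside the low end, as did the Twi list (306 bp), the single-dose Grh list (309 bp) and the Zld DMSO list (326 bp). The Zld summits of RpS14a lay nearer to Dhdds, 237 bp outside the gene in the single-dose list.

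Across copper doses, the Zld series changed the listed members little. At 0, 500, 1000 and 1500 µM 79, 83, 84 and 84 of 92 had a summit, against 44.2%, 52.5%, 54.0% and 56.8% of all genes and 38.7%, 46.6%, 48.0% and 50.9% of genes of like length. Of these, 77 were listed at every dose, including 0 µM. RpL30, RpL23, RpL23A and RpS28a were listed from 500 µM, RpL7-like from 1000 µM, and RpS28-like and RpS15Ab at 1500 µM only. RpL5 and RpL10, both near a centromere, were listed up to 1000 µM and not at 1500 µM.

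The Grh series had 1, 73, 74 and 57 members at 0, 25, 100 and 400 µM, against 6.38%, 49.0%, 55.6% and 49.2% of all genes and 2.88%, 42.7%, 49.1% and 40.6% of genes of like length. RpS16 was the member at 0 µM, with a summit nearer to Vps20 and a rank above 3.1% of regions. At 25, 100 and 400 µM 52 members were listed at all 3, RpS16 among them, and 18 at 25 and 100 µM but not at 400 µM. Those 18 include RpLP2 of the ribosomal stalk, RpS2, RpS7, RpS12, RpS15 and RpS18 of the small subunit and RpL8, RpL9, RpL14 and RpL28 of the large. RpS27A and RpS30 were listed at 400 µM only, and 13 members at no dose. At 400 µM the summit lay outside the gene span at 33 of 57 members (57.9%, 44.1 to 70.9%), against 58 of 74 at 100 µM (78.4%, 67.3 to 87.1%).

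HA-Twi lists named 0, 2, 3 and 1 members at 0, 10, 40 and 160 µM, against 0.424%, 8.66%, 11.7% and 17.3% of all genes and 0.0785%, 2.94%, 4.52% and 8.43% of genes of like length. At no dose were 88 members listed. At 10 µM they were RpS4 with a fold of 2.53 and RpS3 with 1.90. At 40 µM they were RpS23 with 2.12, RpS4 with 1.92 and RpS3 with 1.88, ranking above 21.4%, 11.5% and 9.8% of regions. At 160 µM it was RpL24-like with 1.72, its summit nearer to CG5276. None of the 3 summits at 40 µM lay within 150 bp of the wild-type anti-HA summit at the same gene. The HA-Twi summits lay 235 bp outside RpS4, inside Syx13, 351 bp outside RpS3 and 493 bp outside RpS23. Untagged Twi at the same copper dose, seen with anti-Twi, had 85 members, and antibody and tag differ together between these lists.

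The taz and DMSO lists differed for Zld. With taz 38 members had a summit, against 18.9% of all genes and 13.9% of genes of like length, and with DMSO 6, against 7.55% and 2.95%, with 5 in both, 33 with taz alone and RpLP0 with DMSO alone. The 6 DMSO members ranked above a median of 13.7% of regions and lay a median of 359 bp from a gene end. The DMSO list falls far from the 82 and 84 of the other Zld experiments at that dose, so the pair cannot be read apart from the spread between experiments. For Grh 34 members had a summit with taz, against 41.8% of all genes and 33.4% of genes of like length, and 35 with DMSO, against 43.9% and 35.8%, with 29 in both. For Zld with DMSO and for both Grh lists the members' shares, 6.52%, 37.0% and 38.0%, were below those of all genes and above those of genes of like length, so the direction depends on the genes compared. For HA-Twi the lists held RpS4 alone with taz (12.3% of all genes, 4.58% of those of like length) and no member with DMSO (7.57% and 2.15%).

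For the domain constructs, values are set beside those of the full-length factors without a comparison, since the copper doses differ. Zld-DBD had 15 at 100 µM in the single-dose experiment (9.05% of all genes, 5.7% of those of like length), 33 at 100 µM (23.3% and 15.8%) and 50 at 400 µM (31.1% and 23.8%) in the other, beside 82, 84 and 6 (DMSO) for full-length Zld at 1000 µM. Grh-DBD had 67 at 20 µM in the single-dose experiment (42.2% and 35.6%), 70 at 20 µM (45.3% and 39.2%) and 39 at 80 µM (35.2% and 28.9%) in the other, beside 76, 74 and 35 (DMSO) for full-length Grh at 100 µM. RpL37-1 and RpS26 stood in the upper 10% of all 3 Zld-DBD lists, and RpS4 in that of all 3 Grh-DBD lists.

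Duplicated genes were listed unevenly within several pairs. Of 92 members, 69 are single genes, 18 form 9 pairs that share a number, and 5 have a -like symbol. In wild type, anti-Zld summits were listed at all 69 single genes and anti-HA summits at 62, while of the 23 paired or -like genes 15 and 8 did. RpL10Aa, RpL37-2 and RpS10a had a summit in none of the 31 lists, against 13 for RpL10Ab, 24 for RpL37-1 and 17 for RpS10b. Another coding gene was nearer at 20 of the 24 summits of RpL37-1, and at none of those of RpL10Ab and RpS10b. RpS5b, known for its role in the ovary, was in 1 list (single-dose Zld, 38 bp outside the gene, fold 2.86), against 20 for RpS5a. At RpS5a 6 of the 20 summits were nearer to another gene. RpS19b, known from the germline, was in 3, each time nearer to CG5854, against 19 for RpS19a, 9 of them nearer to another gene. That difference rests on the summit rule: a region without a summit in the window overlapped the window of RpS19b in 21 further lists, giving 24 in all, against 20 for RpS19a. RpS15Ab was in 7, against 12 for RpS15Aa, and 6 of the 7 summits were nearer to Lsm10.

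The other 3 pairs differed by 2 lists each, but not all of their summits were nearest to the member. RpL34a and RpL34b were in 18 and 20 lists, RpS14b and RpS14a in 20 and 22, RpS28b and RpS28a in 17 and 19. At RpL34a 16 of the 18 summits were nearer to another gene, mostly Trmt61, against 5 of 20 at RpL34b. Another gene was nearer at all 19 summits of RpS28a, against 0 of 17 at RpS28b, and at all 22 of RpS14a, against 12 of 20 at RpS14b. Of the -like genes, RpL22-like, known from the testis, was in no list and RpS28-like in 4, all nearer to numb. RpL7-like was in 14, RpLP0-like in 16 and RpL24-like in 19, and every summit of RpLP0-like and RpL24-like was nearer to another coding gene, which for RpL24-like was CG5276. The sources used here do not give how reads matching both copies of a pair were assigned.

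**Figure D5:**
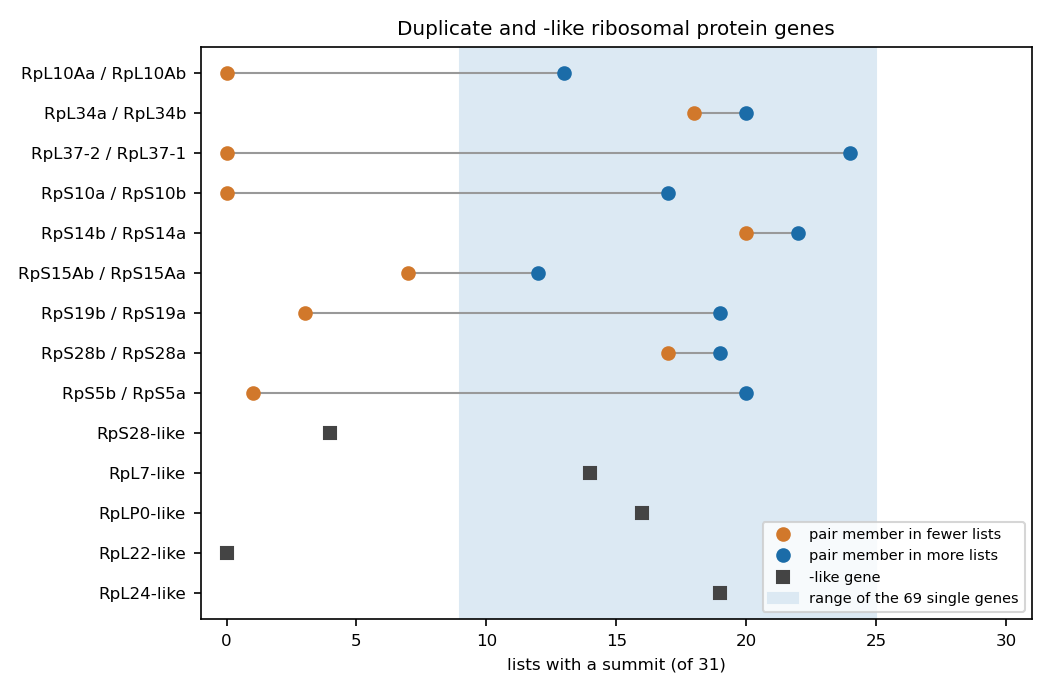
Number of peak lists with a summit (x axis, of 31) for the 9 pairs of duplicated ribosomal protein genes and the 5 -like genes (rows), each pair joined by a line from the gene in fewer lists (orange) to the gene in more lists (blue). The band is the range of the 69 single genes, 9 to 25 lists; RpL10Aa, RpL37-2, RpS10a and RpL22-like stand at 0, and RpS5b, RpS19b, RpS28-like and RpS15Ab also lie below the band, RpS19b by the summit rule only (24 lists by region overlap).

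The 3 stalk genes, whose proteins recruit translation factors to the ribosome, were in similar numbers of lists but not in the same ones. RpLP2, without RpLP0 and RpLP1, was in the Zld list with taz and in the dose-series Zld-DBD lists at 100 and 400 µM. RpLP0 and RpLP1, without RpLP2, were in the Grh lists at 400 µM, with taz and with DMSO, and in the Grh-DBD list at 80 µM. RpLP0 was in 18 lists, RpLP1 in 17 and RpLP2 in 16, and in wild type all 3 were in the anti-Zld and anti-HA lists and in neither of the others. RpLP0 had its summit 129 to 244 bp inside its low-coordinate end in 17 of its lists. With Grh its fold was 9.34, above 76.5% of regions, and in wild type with anti-Zld it was 4.10, above 52.7%. RpLP1 had folds of 9.73 with Grh and 2.83 in wild type with anti-Zld. RpLP2 reached the upper 10% of the single-dose Zld list with a fold of 4.75, its summit 196 bp outside the gene.

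Of the genes whose proteins are made fused to ubiquitin, RpS27A and RpL40 were in 14 lists each. RpS27A stood high in wild type with anti-Zld (fold 16.1, above 97.0% of regions) and anti-Twi (3.32, above 93.6%), in both with the summit nearer to Ir31a. RpL40 had 1 wild-type summit, with anti-Zld, above 8.75% of regions. RpS6, the substrate of S6 kinase, was in 11 lists, and 6 of its summits were nearer to bys. RpL17 and RpL23A were in 9 lists each, the fewest among single genes. RpL23A nonetheless had the highest fold of any member in wild type with anti-Grh, 10.7, followed by RpS30 (7.92), RpS29 (6.20), RpL30 (5.30) and RpL28 (5.15), and RpL23A had no summit in any Grh or Grh-DBD list.

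Of the 92 genes, 28 hold a small nucleolar RNA gene within their span. Among the 69 single genes, 26 do, and these are longer, with a median span of 1887.5 bp against 1186 bp, so their windows are wider. In wild type, anti-Grh summits were listed at 16 of these 26, against 15 of the 43 others, and anti-HA summits at 23 against 39. In the Twi list it was 26 against 41, and in the Grh list 22 against 38.

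Other genes of protein synthesis set these counts in context. They were chosen by name, with earlier results of these data known. The set called translation factors holds genes with symbols beginning eIF or eEF, and also pAbp, Rack1 and sta, so it is not of factors alone. In wild type with anti-HA 76.1% of the 92 cytoplasmic genes had a summit, against 16.4% of 73 mitochondrial ribosomal protein genes, 36.4% of 55 translation factors and 31.6% of 19 ribosome biogenesis and promoter factors. With anti-Zld in wild type the shares were 91.3%, 57.5%, 70.9% and 78.9%, with anti-Grh 42.4%, 24.7%, 40.0% and 21.1%, and with anti-Twi 50.0%, 34.2%, 49.1% and 63.2%. In the lists of expressed factors the gap to the mitochondrial genes was smaller or turned. The single-dose Zld list had 89.1% of cytoplasmic and 76.7% of mitochondrial genes, the Grh list 82.6% and 91.8%, and the Twi list 92.4% and 94.5%. In the Grh DMSO list the shares were 38.0% and 72.6%.

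A missing summit is a weaker statement than a listed one. Peak numbers within a list run along the genome, and the lists hold 16.7% to 86.8% of the numbers up to their highest, so other numbers are not in these lists. Where the peaks on either side of a gene carry consecutive numbers, no peak between them can have been numbered and left out. This held for 14 of the 89 members without a summit in the HA-Twi list at 40 µM, and for 71 numbers were missing between the neighbours (79.8%, against 80.8% of all genes without a summit). In the Zld list with taz it held for 38 of 54 members and in the Grh list with taz for 34 of 58. It held for none of 22 with anti-HA in wild type, for none of 7 in the Twi list, and in the Grh list at 0 µM for none of 91. For RpL10Aa, RpL22-like and RpL37-2 numbers were missing in 22, 23 and 22 of the 31 lists, so their absence rests on the other 9, 8 and 9.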

How the data were processed

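Per the labels, each of the 31 deposited narrowPeak lists belongs to a group of 2 libraries, so 62 of 76 libraries are covered and 14 input and IgG libraries were not analysed here. The submitters' processing notes name Bowtie2 2.4.4, MACS2 2.2, deepTools 3.5.1 and dm6; their roles and settings are not given. The authors deposited a fold (ratio to the local background) and a −log10 q value for each peak. Summits were column 2 plus column 10 and genes came from RefSeq's dm6 table. Python 3.11.15 with pandas 2.3.3, NumPy 2.4.6 and SciPy 1.17.1 counted summits, ranks and exact intervals, and the counting was tested on simulated peaks. The summit of highest fold stood for a gene.

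Members and lists were chosen with earlier results of these data known. Named genes were the stalk genes, the 5 highest members of the wild-type and single-dose lists, all HA-Twi members at 40 µM, the members in most and fewest lists, duplicates, -like genes and a few well studied members; others were named after their values were seen, and some members under this rule are not reported here. All value columns were mapped (0 left). Reading summits from 0 or from 1 changed 2 of 2852 calls. Alternatives were the window, region overlap, a −log10 q minimum of 10, leaving out duplicates, other definitions of outside wild type, the nearest summit and ranking by q. Promoter motifs and sequences were not analysed here, since no genome or strand was used.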

Additional observations from a re-analysis of the deposited data

How the results depend on the processing

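Values below are numbers of members with a summit. Shares of all genes with a summit were computed for the 500 bp window only. Whether the members' excess over all genes holds under another setting is therefore not shown. With the gene span alone, without the 500 bp on either side, 27 of 31 counts moved by over 1.5 times, all lower. For Zld they were 12 (single dose), 15, 17, 23 and 25 (0, 500, 1000 and 1500 µM), 4 (taz) and 2 (DMSO), and for Zld-DBD 1, 2 and 9. For Grh they were 18 (single dose), 19 and 27 (25 and 100 µM), 10 (taz) and 7 (DMSO), and for Grh-DBD 16, 23 and 11. For Twi the count was 34, for HA-Twi 0 at 10, 40 and 160 µM and 0 with taz. In wild type it was 41, 6, 11 and 37 with anti-Zld, anti-Grh, anti-Twi and anti-HA. With 1000 bp on either side, Grh at 0 µM had 2, HA-Twi at 160 µM 8, with taz 4 and with DMSO 1. With overlap of a region in place of a summit they had 2, 7, 4 and 1.

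With −log10 q of at least 10, Zld with taz had 18, Grh at 0 µM 0, Grh with taz 18 and HA-Twi at 160 µM 0. Without pairs and -like genes, Grh with taz had 22 and HA-Twi at 160 µM 0. Leaving out summits nearer to another coding gene, an alternative chosen after seeing the data, moved 16 counts. They became 51 for Zld at 0 µM, 3 for Zld with DMSO, 18 and 31 for Zld-DBD at 100 and 400 µM, 0, 48 and 37 for Grh at 0, 25 and 400 µM, 14 for Grh with taz and 18 with DMSO, 44, 40 and 22 for Grh-DBD, 1 for HA-Twi at 10 µM, 0 at 160 µM, 0 with taz and 28 in wild type with anti-Twi. The members outside wild type became 7 (matched list) and 5 (all 4 lists) for Zld, 3 for Grh and 11 for Twi against all 4 lists, and 1 for HA-Twi against the matched list. Ranked by −log10 q, 47.4% of Grh members and 41.2% of Twi members ranked above the list's median region, against 34.2% and 27.1% by fold. Taking the summit nearest a gene end moved none of 7 shares outside the span.

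No paired analysis was possible because each list pools its 2 libraries, and no replicate was left out for the same reason. The window around gene starts was not run. Depth is unknown, and its part in the length of a list was not tested.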
